A study of Mus musculus with 4 samples.

Results

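The 39 genes described here encode the bone morphogenetic protein (BMP) and transforming growth factor beta (TGF-beta) family and its signaling chain in mouse liver. They comprise 8 ligands, 3 extracellular regulators, 11 receptors and co-receptors, 6 signal-carrying SMADs, 6 inhibitors and 5 target transcription factors. A locus of any of the 4 libraries that overlapped an exon of 1 of these genes on build GRCm38 was taken as a locus of that gene, which gave 325 of 154206 loci. All 39 genes were overlapped by at least 1 locus. Of the 21670 protein-coding genes of the annotation, 7931 could be tested, and 26 of the 39 were among them.

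The livers came from male mice carrying a homozygous disruption of hemojuvelin (Hjv), 2 libraries, and from wild type males of the same C57BL/6 background, 2 libraries. From 5 weeks of age both genotypes ate an iron-poor AIN-93G diet (2.5 ppm iron) during 50 days, and livers were collected at 12 weeks. The disruption is a germline one, carried by all tissues and not restricted to the liver. The labels do not state that each library is a separate animal, so every p-value below measures the spread between these libraries, which may be technical.

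Ligands of this family bind paired type I and type II serine/threonine kinase receptors, and the activated type I receptor phosphorylates receptor SMADs, which enter the nucleus with the shared partner SMAD4. BMP receptors act through SMAD1, SMAD5 and SMAD9, whereas TGF-beta and activin receptors act through SMAD2 and SMAD3. In liver, BMP6 and BMP2 from sinusoidal endothelial cells act on hepatocytes, where hemojuvelin serves as a BMP co-receptor, and the best known output is hepcidin (Hamp), the hormone that limits iron release into plasma. Feedback inhibitors such as SMAD6 and SMAD7 and the inhibitors of DNA binding Id1, Id2, Id3 and Id4 are direct SMAD targets.

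Promoter sequences are given for 2 target genes whose knockout libraries both lay above wild type (Id2 and Id3). Those of the feedback inhibitor gene Smad6 and of Hamp, the gene hemojuvelin is best known to act on, follow. All these sequences were searched for SMAD motifs. Each runs from 250 bases before the gene's start to 30 bases from it, 5′ to 3′ on the gene's own strand, from RefSeq on build GRCm38.p6, and capitals mark a motif.
Id2 (chr12:25096063-25096342, minus strand): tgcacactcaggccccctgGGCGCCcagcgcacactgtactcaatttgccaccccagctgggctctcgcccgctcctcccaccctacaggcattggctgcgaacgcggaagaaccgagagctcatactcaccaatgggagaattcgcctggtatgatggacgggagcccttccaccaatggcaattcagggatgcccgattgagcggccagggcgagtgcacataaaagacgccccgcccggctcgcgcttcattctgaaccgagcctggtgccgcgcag
Id3 (chr4:136143572-136143851, plus strand): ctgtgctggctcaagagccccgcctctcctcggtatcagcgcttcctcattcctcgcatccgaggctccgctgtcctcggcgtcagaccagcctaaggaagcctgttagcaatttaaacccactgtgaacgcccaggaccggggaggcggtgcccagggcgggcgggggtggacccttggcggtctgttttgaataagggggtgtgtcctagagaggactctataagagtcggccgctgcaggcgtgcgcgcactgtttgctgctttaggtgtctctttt
Smad6 (chr9:64022030-64022309, minus strand): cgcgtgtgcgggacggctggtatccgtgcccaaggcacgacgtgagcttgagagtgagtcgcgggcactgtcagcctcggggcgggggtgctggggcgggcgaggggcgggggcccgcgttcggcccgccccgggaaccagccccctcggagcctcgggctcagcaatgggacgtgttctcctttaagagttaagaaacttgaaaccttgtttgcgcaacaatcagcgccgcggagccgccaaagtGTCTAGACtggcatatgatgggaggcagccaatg
Hamp (chr7:30944000-30944279, minus strand): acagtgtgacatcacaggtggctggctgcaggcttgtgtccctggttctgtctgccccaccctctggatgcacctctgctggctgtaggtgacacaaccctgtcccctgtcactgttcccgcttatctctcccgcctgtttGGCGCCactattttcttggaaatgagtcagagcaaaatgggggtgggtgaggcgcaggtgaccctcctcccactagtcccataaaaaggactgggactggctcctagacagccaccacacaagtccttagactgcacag
The letters GGCGCC, the core of the GC-rich element that SMAD1 and SMAD5 bind, and GTCTAGAC, the palindromic SMAD element, read the same on both strands and do not overlap each other in these windows. Counted to its first base, GGCGCC lay 231 bases before the start in Id2 and 109 bases before it in Hamp. GTCTAGAC began 4 bases before the start in Smad6 and ran across it, while the Id3 window held neither. Over all RefSeq promoters of this length, 3597 of 32851 (10.95%) held GGCGCC and 63 (0.1918%) held GTCTAGAC. Of 32 promoters listed for 28 of the 39 genes, 10 held GGCGCC, in Acvr1b, Bmpr1a, Bmpr2, Id2, Id4, Smad5, Smad9, Smurf2 and Tgfbr1, and 1 held GTCTAGAC. The genes with no entry were Bmp2, Bmp1, Fst, Acvrl1, Tgfbr3, Smad2, Smad4, Smad7, Bambi, Skil and Id1.

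The deposited values are fragments per kilobase of transcript, relative to the mapped fragments of the library (FPKM), and were scaled here between libraries. Steps between confidence bounds, with 1 step taken as 1 fragment, gave depths of 55.0 and 131.6 M fragments in the knockout libraries and 86.97 and 51.25 M in the wild type libraries. Transcripts were assembled in each library on its own, and knockout replicate 1 was the most broken up, with 2.42 used loci per family gene against 1.27 in knockout replicate 2, and 2.00 and 1.89 in the wild type libraries. Over the 7931 tested genes, transcript GC content and the log2 ratio between the knockout libraries (replicate 2 over replicate 1) had a Spearman correlation of 0.478, against 0.264 for the same ratio in wild type. These are correlations across genes, which are not independent replicates. The liver label was checked on hepatocyte markers, of which Apoa1 measured 3421 and 5010 scaled FPKM in knockout and 2643 and 1601 in wild type, and albumin (Alb) had no used locus in any library, so an unassembled gene is not a silent gene. The targeted gene was unassembled in knockout replicate 1, and in knockout replicate 2 it measured 0.236 scaled FPKM with 14.3% of the transcript covered, against 9.22 and 29.6 in the wild type libraries.

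Of the 26 tested genes, 9 were above wild type in both knockout libraries, 1 was below it in both, and 16 had overlapping groups. The 9 were the ligand genes Bmp2, Bmp4, Gdf2 and Tgfb1, the protease gene Bmp1, the receptor genes Acvr1b and Tgfbr3, the ubiquitin ligase gene Smurf1 and the target gene Id2, and the 1 was the receptor gene Tgfbr2. Over all tested genes, 22.3% lay above and 23.8% below in this way. The median log2 difference, knockout minus wild type, was 0.085 for the 26 and 0.017 over all genes. By limma with Benjamini-Hochberg adjustment over all 7931 genes, 0 genes passed at 0.05 in either direction (0% higher, 0% lower), with 0.166 as the smallest adjusted p. Without adjustment, at p under 0.05, there were 464 genes higher (5.85%) and 423 lower (5.33%), among them Id2 and Tgfbr2 and no other of the 26.

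The count of 9 depended on the scale and on single libraries. With quantile normalization 5 of the 26 lay above and 3 below, a share above of 19.23% against 18.89% for all genes. With values as deposited, where the median of all genes moved to 0.19, 12 lay above and 1 below, a share above of 46.15% against 35.86% for all genes. Leaving out a library raised the shares for all genes as well, since 1 library separates from 2 more easily. The count above was 15 of 26 (57.69%, against 39.63% for all genes) without knockout replicate 2, and 14 (53.85%, against 32.91%) when wild type replicate 1 was left out. It was 11 (42.31%, against 39.65%) without knockout replicate 1, near the share of all genes, and 11 (42.31%, against 33.72%) without wild type replicate 2. The count below was 7 (26.92%, against 41.17% for all genes) when knockout replicate 1 was left out and 4 (15.38%, against 38.29%) when knockout replicate 2 was. It was 1 (3.846%, against 32.74%) when wild type replicate 1 was left out and 9 (34.62%, against 34.06%) when wild type replicate 2 was. An exact two-sided permutation test of a single gene could reach no p below 0.333 in this design of 2 against 2.

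**Figure D1:**
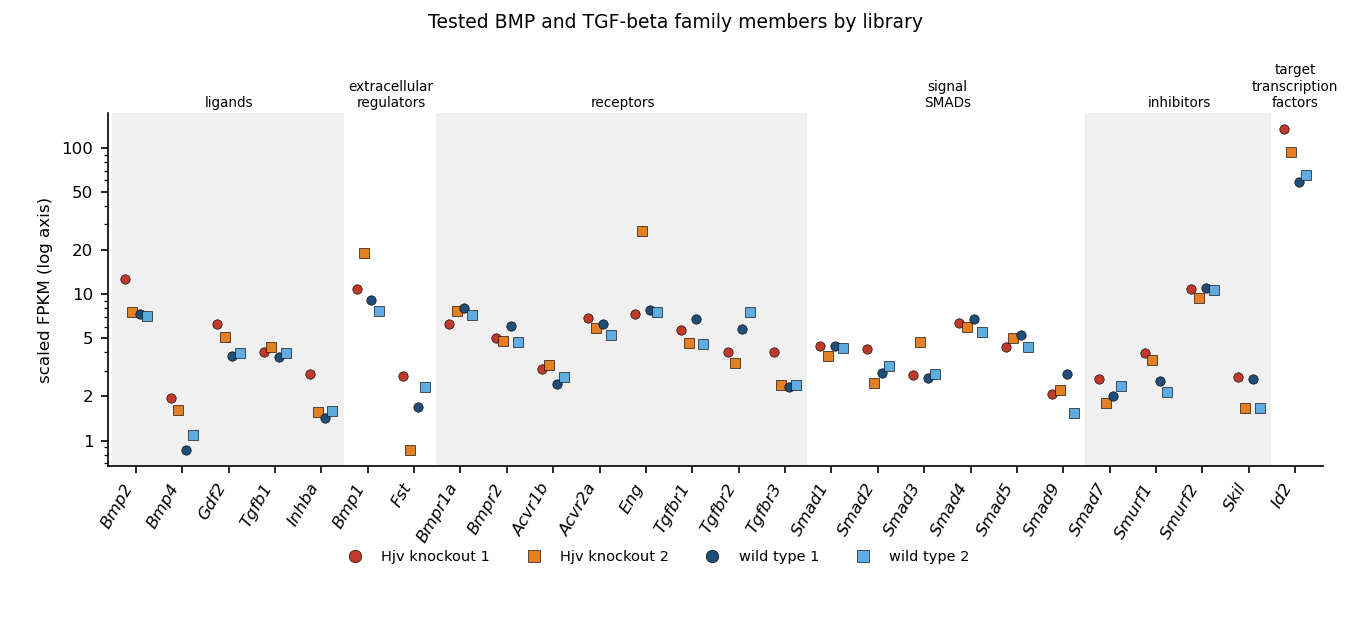
Scaled FPKM (log axis) of the 26 tested family genes in each library, grouped by role, with knockout libraries in red and orange and wild type libraries in blue. Id2 is the most abundant, with both knockout libraries at 94.4 or more and both wild type libraries at 65.5 or less, and Eng has knockout replicate 2 alone apart at 26.9.

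Of the ligand genes, 5 of 8 were tested, 4 lay above wild type in both knockout libraries, 0 lay below and 1 overlapped. The share above was 80.0% of these 5, against 22.3% for all genes. The median log2 difference of the 5 was 0.39. Gdf2 (chromosome 14, 33941039 to 33947198) encodes BMP9, a circulating ligand made in the liver that acts on endothelium, and measured 6.24 and 5.07 scaled FPKM in the knockout libraries against 3.80 and 3.96 in the wild type libraries. The knockout values were above wild type by more than the gap between the wild type libraries, with a log2 difference of 0.44 (SE 0.20, limma adjusted p = 0.489). Bmp4 (chromosome 14, 46383520 to 46390669), a ligand of BMP type I receptors, measured 1.94 and 1.61 in the knockout libraries against 0.859 and 1.10 in the wild type libraries. Its log2 difference was 0.49 (SE 0.21, limma adjusted p = 0.474), on a level near the filter of 1 FPKM, and the 2 libraries of each genotype stood together.

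Bmp2 (chromosome 2, 133552159 to 133562885), which together with Bmp6 drives hepcidin in mouse liver, measured 12.6 and 7.52 scaled FPKM in the knockout libraries against 7.34 and 7.06 in the wild type libraries. Knockout replicate 1 stood apart, and knockout replicate 2 lay just above wild type replicate 1. The log2 difference was 0.39 (SE 0.28, limma adjusted p = 0.604), and it was 0.056 without knockout replicate 1 and 0.73 without knockout replicate 2. Tgfb1 (chromosome 7, 25687002 to 25705077), the main TGF-beta of liver fibrosis, measured 4.05 and 4.33 in the knockout libraries against 3.70 and 3.98 in the wild type libraries. The groups were separated by less than the gap within either genotype, the log2 difference was 0.10 (SE 0.19, limma adjusted p = 0.856), and under quantile normalization it turned to -0.018.

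Inhba, the activin A subunit, measured 2.87 and 1.56 scaled FPKM in the knockout libraries against 1.43 and 1.60 in the wild type libraries, so the groups overlapped and knockout replicate 1 alone was high. Bmp6 (chromosome 13, 38345107 to 38500302), the ligand that liver iron induces, had a value in every library but was outside the test because used loci covered 39.4% of its transcript in knockout replicate 1. It measured 3.76 and 2.44 in the knockout libraries against 1.22 and 1.59 in the wild type libraries, so the knockout pair was above the wild type pair. With the minimum share lowered to 25% its log2 difference was 0.75 (limma adjusted p = 0.476, unadjusted p = 0.0337). In knockout replicate 1 the value rests on 1 locus at the 3′ end of the gene, at 4.503 FPKM as deposited, where the wild type libraries had loci at 0.753 and 1.16 FPKM and knockout replicate 2 had 1 locus over the whole gene at 2.33 FPKM. The 3′ end of Bmp6 shares 224 exonic bases with Txndc5 on the other strand, which measured 52.0 and 52.1 scaled FPKM in the knockout libraries and 52.9 and 53.8 in the wild type libraries. The labels do not say that strand was kept, so reads of the pair there cannot be told apart.

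Inhbc and Inhbe, the activin C and E subunits made by hepatocytes, are neighbors on chromosome 10 and were joined into 1 locus (127349115 to 127373136) in knockout replicate 2, at 9.18 FPKM as deposited, which was not used for either. Inhbc measured 21.5 scaled FPKM in knockout replicate 1 against 7.28 and 11.0 in the wild type libraries. Inhbe measured 15.8 in knockout replicate 1 against 13.78 and 13.04 in the wild type libraries. With 1 knockout value each, neither was tested.

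Of the extracellular regulators, Bmp1 (chromosome 14, 70474558 to 70520234) is not a BMP but a metalloprotease that trims procollagens and cleaves the BMP antagonist chordin. It measured 10.87 and 19.01 scaled FPKM in the knockout libraries against 9.18 and 7.69 in the wild type libraries, with knockout replicate 2 highest. The log2 difference was 0.71 (SE 0.31, limma adjusted p = 0.481). It was 0.34 without knockout replicate 2 and 1.09 without knockout replicate 1. The GC content of the Bmp1 transcript is 57.98%, against a median of 49.35% over all tested genes. Its part in the result was not tested. Fst, follistatin, which binds activins, measured 2.77 and 0.864 in the knockout libraries against 1.69 and 2.32 in the wild type libraries, so the knockout libraries enclosed the wild type ones. Ltbp1, which anchors latent TGF-beta in the matrix, had 2.57 and 0.655 in the knockout libraries and 1.04 in wild type replicate 1. No locus could be used in wild type replicate 2, so it was not tested.

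Of the receptor and co-receptor genes, 8 of 11 were tested, 2 lay above, 1 lay below and 5 overlapped. Over all genes, 22.3% lay above and 23.8% below. The share of the 8 above was near that of all genes, and the share below was under it. The median log2 difference of the 8 was 0.011. Tgfbr2 (chromosome 9, 116084293 to 116175360), the type II receptor that binds TGF-beta first, measured 4.05 and 3.40 scaled FPKM in the knockout libraries against 5.82 and 7.56 in the wild type libraries. Both knockout libraries were low, at 0.557 of the wild type mean, and it was the 1 tested family gene below wild type in both. The log2 difference was -0.70 (SE 0.22, limma adjusted p = 0.422, unadjusted p = 0.0255), and over the 20 alternatives it lay between -0.86 and -0.52. Its partner Tgfbr1, the type I receptor, measured 5.73 and 4.63 in the knockout libraries against 6.78 and 4.60 in the wild type libraries, with the knockout pair inside the wild type pair.

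Tgfbr3 (chromosome 5, 107106570 to 107289629), betaglycan, a co-receptor that presents TGF-beta2 and inhibin, measured 4.02 and 2.41 scaled FPKM in the knockout libraries against 2.30 and 2.38 in the wild type libraries. Knockout replicate 1 alone stood apart, with a log2 difference of 0.31 (SE 0.26, limma adjusted p = 0.653) that was 0.028 without that library. Acvr1b (chromosome 15, 101174067 to 101213684), the activin type I receptor ALK4, measured 3.06 and 3.28 in the knockout libraries against 2.43 and 2.71 in the wild type libraries, a log2 difference of 0.23 (SE 0.19, limma adjusted p = 0.656). That direction did not hold for every way of valuing a gene, with -0.21 for the highest locus and -0.65 for the sum of loci.

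The BMP receptor genes overlapped. Bmpr1a, the type I receptor ALK3 that carries hepcidin signaling in hepatocytes, measured 6.24 and 7.70 scaled FPKM in the knockout libraries against 8.02 and 7.22 in the wild type libraries. Bmpr2, the main BMP type II receptor, measured 4.98 and 4.79 in the knockout libraries against 6.07 and 4.69 in the wild type libraries. Acvr2a, a type II receptor shared by activins and BMPs, measured 6.92 and 5.83 in the knockout libraries against 6.29 and 5.26 in the wild type libraries, with the higher value in replicate 1 of each genotype. Acvr2a shares 446 exonic bases with Orc4 on the other strand, which measured 5.57 and 4.62 in the knockout libraries and 5.46 and 4.76 in the wild type libraries.

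Eng, endoglin, the endothelial co-receptor for BMP9 and TGF-beta, measured 7.31 and 26.9 scaled FPKM in the knockout libraries against 7.847 and 7.505 in the wild type libraries. Knockout replicate 2 alone was high, and knockout replicate 1 was below both wild type libraries. The log2 difference was 0.81 (SE 0.59, limma adjusted p = 0.608). It was 1.69 without knockout replicate 1 and -0.063 without knockout replicate 2, so its size and sign depended on which knockout library was kept. The transcript has a GC content of 57.39%, and 61 of its exonic bases lie under Fpgs on the other strand, which measured 13.2 and 39.0 in the knockout libraries and 12.6 and 11.9 in the wild type libraries, with the same library apart. In knockout replicate 2 the used Eng locus ended at position 32681508. The Fpgs loci that touched Eng exons in the other libraries began at 32682610 to 32682626, so the shared bases lay outside that locus. The part of GC content and of Fpgs in the result was not tested.

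Acvr1, Acvr2b and Acvrl1 each had a value in 3 libraries and were not tested. Acvr1, the type I receptor ALK2 that together with ALK3 carries BMP6 signaling, measured 4.85 and 1.47 scaled FPKM in the knockout libraries and 6.20 in wild type replicate 1. Acvrl1, the endothelial BMP9 receptor ALK1, measured 0.869 in knockout replicate 2 and 0.780 and 0.745 in the wild type libraries. Acvr2b, another activin type II receptor, measured 0.937 and 1.11 in the knockout libraries and 0.908 in wild type replicate 2. For Acvr1 the 1.47 comes from a locus at the 5′ end only, since the main locus in knockout replicate 2 (2425 exonic bases, 4.75 scaled FPKM) also covered exons of a neighboring gene and was left out, as was the locus in wild type replicate 2 (3214 exonic bases, 4.82). The 1.47 is therefore not a level of the whole gene. Acvrl1 in knockout replicate 1 and Acvr2b in wild type replicate 1 had no usable locus.

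**Figure D2:**
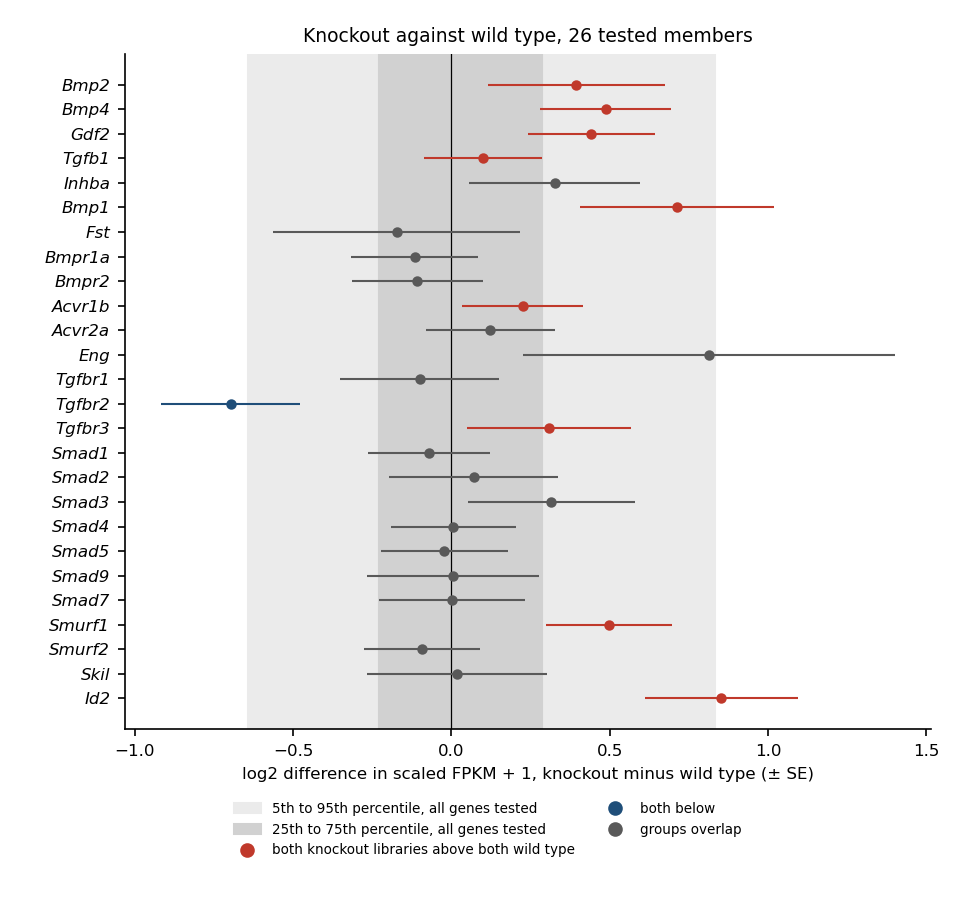
Log2 difference in scaled FPKM + 1, knockout minus wild type, with SE from limma, for the 26 tested family genes ordered by role; red marks genes above wild type in both knockout libraries, blue below, grey overlapping, and grey bands give the spread of all 7931 tested genes. Id2 at 0.85 and Tgfbr2 at -0.70 lie outside the band from -0.64 to 0.83 that holds the 5th to the 95th percentile of all genes.

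All 6 signal-carrying SMAD genes were tested and all 6 overlapped between the genotypes, at a median log2 difference of 0.0058. Over all genes, 53.92% overlapped. Among the BMP-responsive SMADs, Smad1 measured 4.43 and 3.81 scaled FPKM in the knockout libraries against 4.45 and 4.28 in the wild type libraries. Smad5 measured 4.38 and 5.05 in the knockout libraries against 5.23 and 4.38 in the wild type libraries, nearly the same pair of values in each genotype. Smad9, also BMP-responsive, measured 2.09 and 2.20 in the knockout libraries against 2.87 and 1.54 in the wild type libraries, where the wild type pair enclosed the knockout pair.

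Of the SMADs of the TGF-beta and activin branch, Smad2 measured 4.24 and 2.49 scaled FPKM in the knockout libraries against 2.90 and 3.24 in the wild type libraries, with the knockout pair around the wild type pair. Smad3 measured 2.82 and 4.72 in the knockout libraries against 2.66 and 2.85 in the wild type libraries, with knockout replicate 2 alone high. The shared partner Smad4 measured 6.38 and 5.92 in the knockout libraries against 6.74 and 5.55 in the wild type libraries, the highest mean level of the 6 in both genotypes. Overlap of 2 libraries with 2 does not show that these levels are alike, and the SE of the 6 log2 differences ran from 0.19 for Smad1 to 0.27 for Smad9.

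Of the inhibitor genes, 4 of 6 were tested, 1 lay above, 0 lay below and 3 overlapped. The share of the 4 above was near the 22.3% of all genes, of which 23.8% lay below. The median log2 difference of the 4 was 0.0099. Smurf1 (chromosome 5, 144876495 to 144965847), a ubiquitin ligase that marks BMP SMADs and receptors for degradation, measured 3.98 and 3.52 scaled FPKM in the knockout libraries against 2.57 and 2.16 in the wild type libraries. The gap between the genotypes was wider than that within either, with a log2 difference of 0.50 (SE 0.20, limma adjusted p = 0.456). Its relative Smurf2 measured 10.8 and 9.45 in the knockout libraries against 11.0 and 10.7 in the wild type libraries, with the groups overlapping.

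Smad7, the inhibitory SMAD of both branches, measured 2.65 and 1.80 scaled FPKM in the knockout libraries against 2.02 and 2.37 in the wild type libraries, with the knockout pair around the wild type pair. Skil (SnoN), a corepressor of SMAD target genes, measured 2.73 and 1.66 in the knockout libraries against 2.63 and 1.66 in the wild type libraries, nearly the same pair in each genotype. Smad6, the inhibitory SMAD that BMPs induce, was outside the test with 29.2% of its transcript spanned in knockout replicate 1, and measured 3.70 and 2.57 in the knockout libraries against 4.54 and 2.63 in the wild type libraries. Bambi, a decoy receptor, was also outside the test, with at most 27.97% spanned in any library, and measured 2.87 and 1.48 in the knockout libraries against 0.958 and 2.25 in the wild type libraries. Neither Smad6 nor Bambi separated the genotypes.

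Of the target transcription factor genes, Id2 alone could be tested. Id2 (chromosome 12, 25093799 to 25097140), a dominant negative partner of basic helix-loop-helix factors, measured 134 and 94.4 scaled FPKM in the knockout libraries against 58.2 and 65.5 in the wild type libraries. The knockout pair lay above the wild type pair, at 1.84 times the wild type mean. The log2 difference was 0.85 (SE 0.24, limma adjusted p = 0.419, unadjusted p = 0.0174), and over the 20 alternatives it stayed between 0.60 and 1.10, with adjusted p from 0.127 to 0.997. Used loci spanned 93.8% or more of the Id2 transcript in each library, with 11605 and 18629 fragments in the knockout libraries and 6757 and 4433 in the wild type libraries.

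The other 4 target genes were each spanned under 50% in at least 1 library. Id3 (chromosome 4, 136143497 to 136145755) measured 5.88 and 18.6 scaled FPKM in the knockout libraries against 1.59 and 1.94 in the wild type libraries, so both knockout libraries were above and knockout replicate 2 was by far the highest. The values rest on 264 and 2697 fragments in the knockout libraries and 190 and 42 in the wild type libraries. Over the 377 exonic bases assembled in all 4 libraries, an alternative added after the data were seen, Id3 measured 5.743 and 18.98 in the knockout libraries against 1.81 and 1.95 in the wild type libraries, a log2 difference of 2.01 (limma adjusted p = 0.433, unadjusted p = 0.0135). Its transcript GC content is 55.63%, and the part of base composition in the gap between the knockout libraries was not tested.

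Id1, often used to read out BMP signaling in liver, measured 3.83 and 1.05 scaled FPKM in the knockout libraries against 1.51 and 2.94 in the wild type libraries. The groups overlapped, and the loci had 0 exonic bases in common to all 4 libraries, with 39 and 150 fragments in the knockout libraries and 86 and 75 in the wild type libraries, so the Id1 values come from different stretches of the transcript. Id4 measured 2.51 and 0.656 in the knockout libraries against 1.10 and 0.899 in the wild type libraries. Atoh8, a basic helix-loop-helix factor that BMP6 and iron induce in liver, measured 1.47 and 3.61 in the knockout libraries against 2.39 and 3.10 in the wild type libraries. For both Id4 and Atoh8 the knockout pair enclosed the wild type pair.

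**Figure D3:**
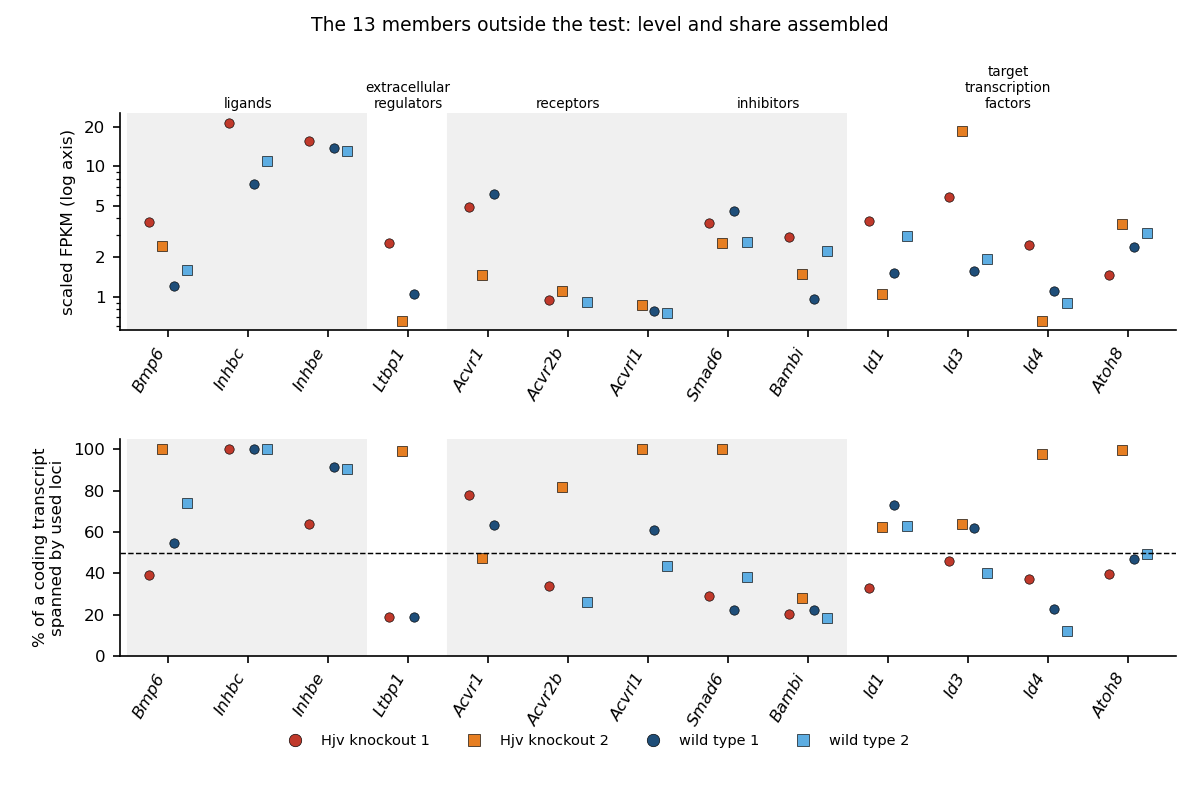
The 13 family genes outside the test: scaled FPKM (log axis) in each library above, and the share of a coding transcript spanned by used loci below, with the 50% minimum as a dashed line. Id3 and Bmp6 have the knockout pair above the wild type pair, and Bambi is spanned by at most 27.97% in every library.

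Of 72 other genes of the pathway, 34 were tested, 5 lay above wild type in both knockout libraries, 5 below and 24 overlapped. The shares were 14.71% above and 14.71% below, under the 22.3% and 23.8% of all genes. Their median log2 difference was 0.049, with 0 at an unadjusted p under 0.05. Hepcidin itself (Hamp) had no used locus in knockout replicate 1 and 1.62 scaled FPKM in knockout replicate 2, against 21.96 and 100.4 in the wild type libraries, and was not tested. Tmprss6, the hepatocyte protease that cleaves hemojuvelin, measured 42.3 and 120.8 in the knockout libraries against 36.6 and 48.6 in the wild type libraries, with knockout replicate 2 alone apart. Neo1, neogenin, which binds hemojuvelin, measured 3.60 and 2.57 in the knockout libraries against 2.91 and 2.76 in the wild type libraries. Its log2 difference of 0.078 turned to -0.031 under quantile normalization and to -0.11 without knockout replicate 1.

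The 4 genes above with the smallest p were Fkbp8, Trim33, Rnf111 and Nrros. Fkbp8, an immunophilin, measured 22.1 and 106.4 scaled FPKM in the knockout libraries against 14.6 and 10.5 in the wild type libraries, with knockout replicate 2 far above the rest and a transcript GC content of 63.04%. Its log2 difference was 1.89 (SE 0.74, limma adjusted p = 0.451), and without knockout replicate 1 it was 3.00. Trim33, a ubiquitin ligase that acts on SMAD4, had a log2 difference of 0.30, Rnf111 (Arkadia), which degrades SMAD7 and SnoN, 0.16, and Nrros, which anchors latent TGF-beta1 on macrophages, 0.15. Rnf111 turned to -0.0097 with the highest locus and to -0.31 with the sum of loci, and Nrros to -0.26 with the sum of loci.

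The 4 genes below with the smallest p were Hes1, Wwp1, Tsc22d1 and Tgif1. Hes1, a repressor best known as a Notch target, measured 4.77 and 8.57 scaled FPKM in the knockout libraries against 11.0 and 11.5 in the wild type libraries, a log2 difference of -0.72 (SE 0.29, limma adjusted p = 0.464). Wwp1, a ubiquitin ligase of TGF-beta receptors, had a log2 difference of -0.35 and Tsc22d1, a TGF-beta stimulated transcript, -0.60. Tgif1, a SMAD corepressor, measured 6.60 and 1.40 in the knockout libraries against 7.38 and 6.90 in the wild type libraries, with knockout replicate 2 alone low. Its log2 difference was -0.93, and without knockout replicate 1 it was -1.76.

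Several of the 39 genes are expressed chiefly by non-parenchymal cells, and in whole liver fewer cells of a type and less RNA per cell cannot be told apart. Of 12 stellate cell and fibroblast markers 8 were tested, 5 lay above wild type in both knockout libraries and 0 below, with a median log2 difference of 0.52. The share above was 62.5%, against 22.3% for all genes. The 5 were Lrat, Reln, Hgf, Rgs5 and Colec11, and Reln measured 6.73 and 5.81 scaled FPKM in the knockout libraries against 3.56 and 3.63 in the wild type libraries. Of the 3 that overlapped, Ecm1 had a log2 difference of 0.58, Dcn 0.057 and Col3a1 -0.52. The summed level of the tested markers was 142.3 and 148.9 in the knockout libraries against 128.5 and 102.5 in the wild type libraries. Within that sum, Dcn alone measured 73.1 and 60.3 in the knockout libraries against 70.5 and 57.7 in the wild type libraries.

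Of 14 endothelial markers, all tested, 4 lay above and 1 below, with a median log2 difference of 0.17. The shares were 28.57% above and 7.143% below, against 22.3% and 23.8% for all genes. Summed levels were 117.9 and 149.0 scaled FPKM in the knockout libraries against 102.1 and 122.9 in the wild type libraries, so the groups overlapped. Stab1 measured 2.67 and 11.5 in the knockout libraries against 2.41 and 2.45 in the wild type libraries, with knockout replicate 2 apart. Pecam1, Lyve1, Fcgr2b and Tek were lower in knockout replicate 2 than in knockout replicate 1, and the other endothelial markers were higher there. Of 11 Kupffer cell markers 10 were tested, 0 lay above and 4 below (Adgre1, Cd68, Clec4f and Vsig4), with a median log2 difference of -0.25. The share below was 40.0%, against 23.8% for all genes. Of the 6 that overlapped, C1qc (0.90), Timd4 (0.32) and C1qa (0.22) had log2 differences of the opposite sign. The summed levels of the 10 tested markers were 121.3 and 184.8 in the knockout libraries against 150.2 and 183.0 in the wild type libraries. Of the hepatocyte markers 7 of 10 were tested, 1 lay above (14.29%) and 2 below (28.57%). Few markers of cholangiocytes (1 of 6) and blood cells (2 of 11) could be tested. All listed endothelial, stellate and Kupffer markers had a used locus in at least 1 library, whereas Alb, Cldn7, Hbb-bt, Hba-a1 and Hba-a2 had none in any. The part of cell composition in the values of the 39 genes was not tested.

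**Figure D4:**
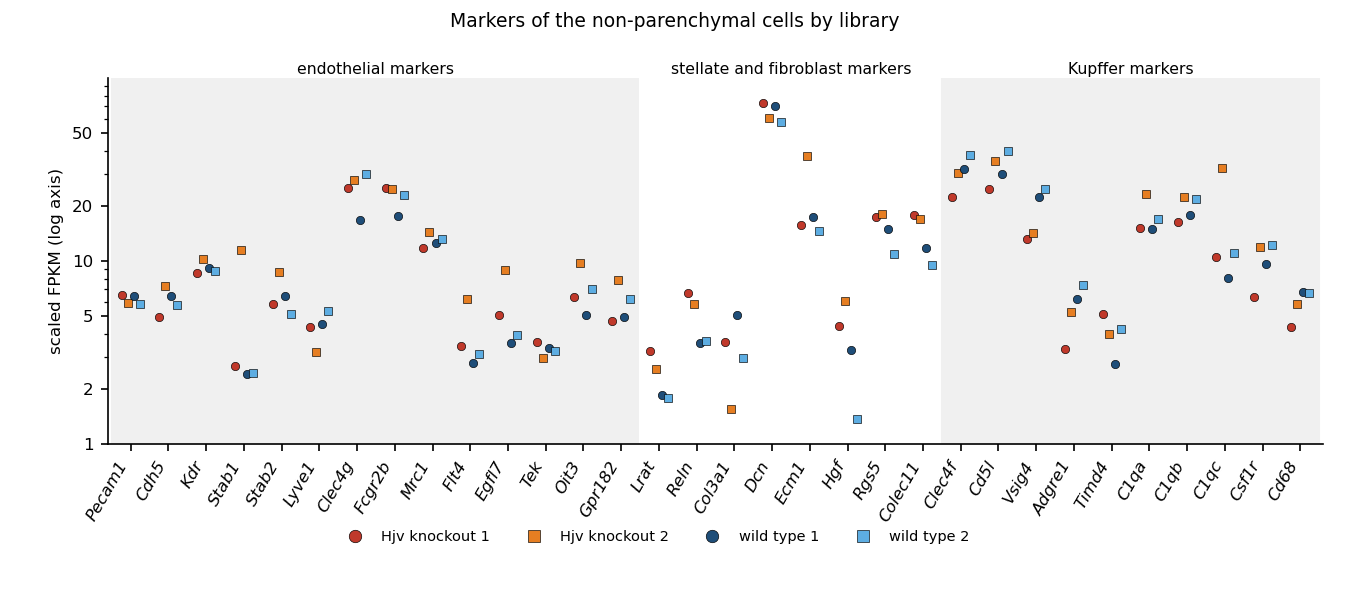
Scaled FPKM (log axis) of the tested markers of endothelial, stellate and Kupffer cells in each library. Reln, Lrat and Colec11 have both knockout libraries above wild type, Vsig4 and Adgre1 have both below, and Stab1 and C1qc have knockout replicate 2 alone apart.

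The 10 genes with separated groups differed in whether their direction held where it could change. For such genes, leaving out a library, another pseudocount or filter, another variance model or the replicate block cannot change the sign. Only other scalings, gene values, span limits and locus filters could. Over 195 recalculations of these genes, many of them fixed in sign in this way, 3 changed sign, 1 for Tgfb1 and 2 for Acvr1b. Id2, Bmp1, Bmp2, Gdf2 and Tgfbr2 kept their sign in all 20 alternatives, and Bmp4, Smurf1 and Tgfbr3 in all 19 in which they could be tested, since the filter at 5 FPKM removed them. The smallest difference that kept its sign was 0.028 for Tgfbr3 without knockout replicate 1, where the sign was fixed. A kept sign does not mean that the groups stayed separated. Under quantile normalization Bmp2 measured 13.26 and 6.92 in the knockout libraries against 7.56 and 7.19 in the wild type libraries, so the groups overlapped. With loci summed, the groups of Bmp1 and Bmp4 overlapped.

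**Figure D5:**
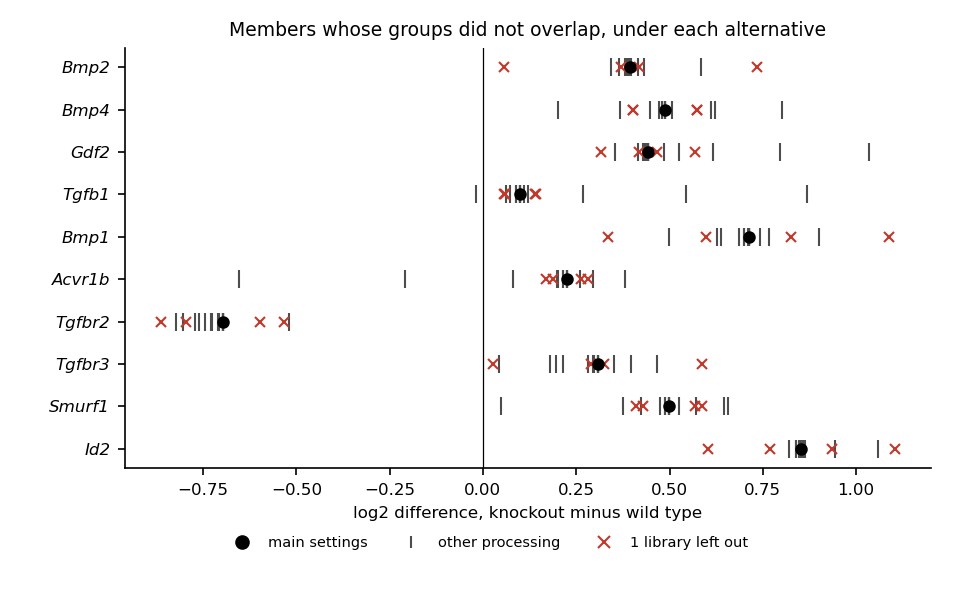
Log2 difference, knockout minus wild type, of the 10 family genes whose groups did not overlap, under the settings used in the text (black), other processing (ticks) and with 1 library left out (red crosses). Id2 stays between 0.60 and 1.10 and Tgfbr2 between -0.86 and -0.52, while Acvr1b and Tgfb1 cross 0.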

How the data were processed

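Liver RNA, extracted with RNeasy and prepared with TruSeq, was sequenced on a HiSeq 2000, per the labels' protocols. The authors deposited FPKM of loci with confidence bounds for each library. FastQC, TopHat and Cufflinks are named, without versions, per the submitters' processing notes, as is build mm9. The coordinates matched GRCm38: 13.5% to 33.2% of loci over 2000 bases had an end within 20 bases of a gene end of GENCODE M21, against 0.226% to 0.336% after a shift of 100000 bases. Strand handling is not given in the sources used here.

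Loci were assigned to genes by position. Where a locus touched several genes, the one sharing the largest number of exonic bases with it took it, and it was used if at least 50% of its length lay between the gene's ends, no other gene held over 25% as many exonic bases, a locus touching only 1 exon was at least 50% exonic, and its FPKM was at most 3 times the midpoint of its bounds. Each gene took the average FPKM of its used loci, with exonic bases as weights, and was tested if these covered 50% or more of a coding transcript in all 4 libraries and at least 1 FPKM was reached in 2. This value was chosen over the highest locus or the sum of loci after the data were seen, because the wild type pair then differed least (SD of log2 ratios 0.417, against 0.552 and 0.715). Libraries were brought to one scale by median-of-ratios factors (1.20 and 0.955 for knockout, 0.935 and 0.915 for wild type). Knockout was compared with wild type, without a block, on log2(scaled FPKM + 1) with limma-trend (limma 3.58.1, R 4.3.3), a two-sided moderated test, with Benjamini-Hochberg adjustment over all 7931 genes, so a log2 difference understates the change of low genes. The fit had 2 residual and 2.88 prior degrees of freedom and was tested on simulated data. In a test with a library left out, the lone library is assumed to vary like the other group.

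The members, lists and tests were chosen with earlier results of these data known. Named genes followed a rule: all 39 members are accounted for, differences and adjusted p-values are given where the groups do not overlap, and of 72 other pathway genes up to 4 per direction by smallest p, with Hjv, Hamp, Tmprss6 and Neo1. Eng, Bmp6 and Id3 were given more values after these were seen. The alternatives were other pseudocounts, filters, scalings, variance models, gene values, span limits and locus filters, a replicate block, and each library left out.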

Additional observations from a re-analysis of the deposited data

How the results depend on the processing

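Over all genes 0 passed the adjusted threshold in the analysis used in the text, 1 with values as deposited, and between 1 and 487 with a library left out (487 without knockout replicate 1, 13 without knockout replicate 2, 2 without wild type replicate 1, 1 without wild type replicate 2). The 9 members above wild type became 4 (of 12 tested) with the filter at 5 FPKM, 5 with quantile normalization, 5 with loci summed, and 11 to 15 with a library left out, where the shares of all genes above were 18.04%, 18.89%, 17.53% and 32.91% to 39.65% (22.3% in the text). The 4 of 12 are 33.33%, against 34.62% for the 9 of 26. The 1 member below became 3 of 26 with quantile normalization, 4 of 26 with the highest locus and 4 of 26 with loci summed. Of all genes, 25.7%, 22.47% and 18.31% lay below there (23.78% in the text). It became 2 of 30 at a span of 25%, 3 of 33 with no minimum span and 2 of 26 with inflated loci kept. The shares of all genes were 23.1%, 22.24% and 23.37%. Over bases assembled in all 4 libraries, an alternative added after the data were seen, 3 of 31 lay below, against 22.62% of all genes. With a library left out 1 to 9 lay below, against 32.74% to 41.17% of all genes. The 5 other pathway genes above became 2 with the filter at 5 FPKM, 9 with values as deposited, 9 with loci summed and 10 to 15 with a library left out, and the 5 below became 1 with values as deposited, 3 over bases assembled in all 4 libraries and 6 to 14 with a library left out. As deposited, 35.86% of all genes lay above and 9.211% below, and over bases assembled in all 4 libraries 22.62% lay below. The filter and the shared bases can change which of these pathway genes are tested, so their counts are not of a fixed set.

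The median log2 difference of the ligands (0.39) was 0.46 with a pseudocount of 0.1, 0.58 with values as deposited and 0.14 to 0.57 with a library left out. That of the extracellular regulators (0.27) was 0.71 with the filter at 5 FPKM, which left Bmp1 alone. It was 0.44 as deposited, -0.020 with loci summed and 0.11 with inflated loci kept. The receptors (0.011) had 0.19 as deposited. The signal SMADs (0.0058) had 0.17 as deposited, -0.10 with quantile normalization, -0.052 with the highest locus, 0.079 with loci summed, 0.042 with inflated loci kept and -0.10 to 0.10 with a library left out. The inhibitors (0.0099) ranged from -0.18 to 0.23 with a library left out. The target factors (0.85, from Id2 alone) had 0.41 at a span of 25%, where Id1, Id3 and Atoh8 entered the test. With no minimum, where Id4 entered too, they had 0.26. Over bases assembled in all 4 libraries, where Id3, Id4 and Atoh8 joined Id2, they had 0.59. All members together (0.085) had 0.25 as deposited, -0.016 with quantile normalization, 0.12 with the highest locus, 0.045 with loci summed, 0.061 over bases assembled in all 4 libraries and 0.029 to 0.20 with a library left out. Values as deposited moved the median of all genes to 0.19. Where genes entered or left the test, a class median also reflects a changed set of genes. The cause of the other shifts was not tested.

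Differences that changed sign were Tgfb1 (-0.018, quantile normalization), Acvr1b (-0.21 and -0.65, highest locus and loci summed), Rnf111 (-0.0097 and -0.31, the same pair of settings, and -0.0050 over bases assembled in all 4 libraries), Nrros (-0.26, loci summed) and Neo1 (-0.031, quantile normalization, and -0.11 without knockout replicate 1). With the replicate number as a block (replicate block) 0 genes passed, and 488 were higher and 363 lower at an unadjusted p under 0.05. Libraries of the same number deviated together with r = 0.0811 across genes, so the numbers are not treated as pairs. In members spanned only in part, the share of the transcript assembled limits what can be compared. This held above 1 FPKM too, as for Smad6 in wild type replicate 1 (4.545 scaled FPKM, 22.15% spanned).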
